A study of Nicotiana tabacum with 18 samples.

Results

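KEA1/2 and KEA3 are the chloroplast K+ efflux antiporters of the K+ transport genes named in the study, which assigned the names by comparing tobacco proteins with those of Arabidopsis thaliana. The 4 genes described here were taken by identifier from the 69500 genes of the deposited expression table. They are the KEA1/2 genes Nitab4.5_0001620g0100 and Nitab4.5_0003111g0100 and the KEA3 genes Nitab4.5_0000001g0390 and Nitab4.5_0001093g0060. In Arabidopsis, KEA1 and KEA2 sit in the inner envelope of the chloroplast and exchange K+ for protons, which keeps the ion and pH balance of the stroma. KEA3 sits in the thylakoid membrane, where it moves protons out of the lumen in exchange for K+ and speeds the return from photoprotection to full photosynthesis when light falls. Nicotiana tabacum is an allotetraploid with 2 ancestral genomes, so a gene of an ancestor is often present as a pair of copies, and each name above was given to 2 genes.

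Middle leaves were collected from field plots 70 days after transplanting, with several plants of a plot mixed, and sequenced as 18 RNA libraries in 6 groups of 3. HP1 was the female parent G70, HP2 the male parent GDH11 grown with it, and H their F1 hybrid G70×GDH11. LP1 was the female parent K326, LP2 the male parent GDH11 of the other cross, and L the F1 hybrid K326×GDH11. The labels name no transgene and no treatment, and the libraries of a group share the genotype, so that GDH11 was measured in HP2 and again in LP2. Values are FPKM, a count of fragments scaled to the length of the transcript and to the mapped fragments of the library, which allows levels of different genes to be compared. Mixed leaf tissue cannot separate fewer cells of a type from less RNA per cell. The numbers of reads behind an FPKM value are not part of the table, so the depth of a single value is unknown and precision rests on the 3 libraries of a group.

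The libraries differed in ways that the groups do not explain. Between 27527 and 33091 genes had at least 1 FPKM, the lowest number being that of LP2 replicate 2, and the other 17 libraries had 31474 or more. A principal component analysis over 34956 genes, from which the 4 KEA genes were left out, gave a first axis that held 38.1% of the variance and cut across the groups. On this axis HP1 replicate 1, HP2 replicate 1 and H replicates 1 and 2 lay between 51.5 and 82.3, the other 5 libraries of the G70 cross between -70.8 and -40.8, and LP2 replicate 2 at 135.8. A table of the study that sets RNA-seq beside qRT-PCR lists 2 of the 3 libraries of each group of the G70 cross and leaves out HP1 replicate 1, HP2 replicate 1 and H replicate 3. The 2 H libraries on that list lie above 0 on the axis and the 4 parental libraries on it lie below 0, so that within these 6 libraries the hybrid and the axis cannot be told apart. Results of the G70 cross are therefore given over all 9 libraries and over the 6 listed ones.

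The KEA1/2 genes were the more abundant of the family members. Over the 18 libraries, the mean of Nitab4.5_0003111g0100 was 20.7 ± 7.71 FPKM (SD, n = 18) and exceeded that of 89.4% of all genes. All genes here means the 69500 genes deposited, detected or not, of which between 37.7% and 44.0% were at 0 in a library. The mean of Nitab4.5_0001620g0100 was 17.6 ± 5.71 FPKM (SD, n = 18), above 87.6% of all genes. The KEA3 copies stood lower and further apart, with 12.1 ± 4.59 FPKM (SD, n = 18) for Nitab4.5_0001093g0060, above 82.8% of all genes. Nitab4.5_0000001g0390 had a median of 5.14 FPKM, and its mean was above that of 70.0% of all genes. The tobacco protein of this last gene is far shorter than that of the other KEA3 gene in the study's supplementary list, and whether its gene model is complete was not tested.

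Nitab4.5_0001620g0100, the first of the 2 envelope antiporter genes, was measured at 14.28, 17.77 and 14.63 FPKM in HP1 replicates 1 to 3, at 23.78, 18.72 and 16.38 FPKM in HP2, and at 20.81, 21.86 and 15.12 FPKM in H. In the K326 cross it was at 15.87, 9.44 and 21.72 FPKM in LP1, at 16.33, 4.66 and 31.23 FPKM in LP2, and at 18.69, 15.13 and 20.66 FPKM in L. Each hybrid overlapped both of its parents. The lowest and the highest of all 18 values both came from LP2, from replicates 2 and 3. From the highest to the lowest, the group means were HP2 at 19.6 ± 3.78, H at 19.3 ± 3.63, L at 18.2 ± 2.80, LP2 at 17.4 ± 13.3, LP1 at 15.7 ± 6.14 and HP1 at 15.6 ± 1.92 FPKM (SD, n = 3 each). No 2 neighbours in this order differed by more than their spread.

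Nitab4.5_0003111g0100, the other envelope antiporter gene, followed the same libraries at a higher level. Its values were 15.18, 20.31 and 15.59 FPKM in HP1, 31.85, 23.43 and 21.63 FPKM in HP2, and 24.1, 26.19 and 16.76 FPKM in H. They were 21.11, 8.54 and 22.85 FPKM in LP1, 20.92, 3.22 and 37.52 FPKM in LP2, and 22.91, 17.25 and 23.09 FPKM in L. The 3 HP2 libraries lay above the 3 HP1 libraries without overlap, as they did for 5.51% of all genes tested. H overlapped both, and in the K326 cross all groups overlapped. The group means ran from HP2 at 25.6 ± 5.46 over H at 22.4 ± 4.95, L at 21.1 ± 3.32, LP2 at 20.6 ± 17.2 and LP1 at 17.5 ± 7.81 to HP1 at 17.03 ± 2.85 FPKM (SD, n = 3 each). This is the same order as for the first copy, and again no neighbours in it stood apart beyond their spread.

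Nitab4.5_0000001g0390, the less abundant KEA3 gene, was nearly constant in HP1 at 3.72, 3.64 and 3.75 FPKM. It ranged more widely in HP2, at 10, 5.97 and 3.38 FPKM, and in H, at 7.31, 8.67 and 3.03 FPKM. In the K326 cross it was at 6.21, 1.19 and 4.8 FPKM in LP1 and at 6.2, 5.48 and 7.39 FPKM in L. In LP2 it was at 3.9 FPKM in replicate 1 and 8 FPKM in replicate 3, and was listed at 0 in replicate 2. H replicate 3 was below all parental libraries of its cross, whereas H replicates 1 and 2 were exceeded by HP2 replicate 1 alone. The means of HP2 (6.45 ± 3.34), L (6.36 ± 0.96), H (6.34 ± 2.94), LP1 (4.07 ± 2.59) and HP1 (3.70 ± 0.06 FPKM; SD, n = 3 each) came in this order, with no gap between neighbours larger than their spread. LP2 was left out of the order because 1 of its libraries was listed at 0.

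Nitab4.5_0001093g0060, the more abundant KEA3 gene, split the libraries of each group of the G70 cross. It was at 15.64, 8.19 and 10.13 FPKM in HP1, at 19.53, 10.65 and 7.84 FPKM in HP2, and at 17.15, 19.81 and 7.2 FPKM in H. Every group of this cross thus held a library above 15 and a library below 9 FPKM. In the K326 cross it was at 10.27, 6.56 and 11.69 FPKM in LP1, at 10.37, 3.67 and 15.94 FPKM in LP2, and at 12.87, 13.87 and 16.09 FPKM in L. The 3 L libraries lay above the 3 LP1 libraries, as they did for 15.6% of all genes, while LP2 replicate 3 lay within the range of L. H had the highest group mean at 14.7 ± 6.65 FPKM, followed by L at 14.3 ± 1.65, HP2 at 12.7 ± 6.10, HP1 at 11.3 ± 3.86, LP2 at 9.99 ± 6.14 and LP1 at 9.51 ± 2.65 FPKM (SD, n = 3 each), and the neighbours in this order overlapped.

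**Figure D1:**
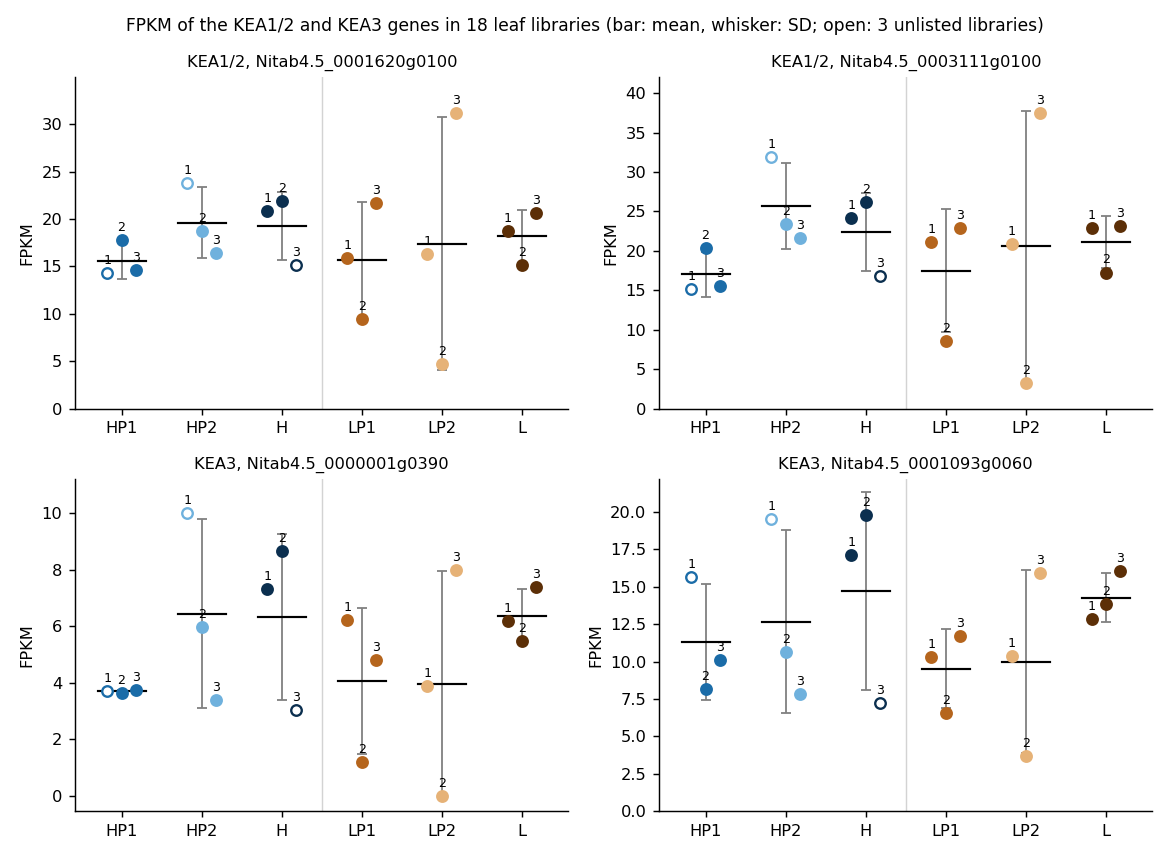
FPKM (y axis, linear) of the 4 genes in the 6 groups (x axis). Points are single libraries with their replicate number, bars are group means with SD as whiskers, and open points are the 3 libraries of the G70 cross that the study's qRT-PCR table leaves out. LP2 replicate 2 has the lowest value of all 4 genes, and Nitab4.5_0001093g0060 has values above 15 and below 9 FPKM within each group of the G70 cross.

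The first comparison asked whether a hybrid differed from its parents or their mean. It was made with limma on log2(FPKM + 1) over every gene that reached 1 FPKM in 3 or more libraries of the cross. A gene was called where the Benjamini-Hochberg adjusted p was at most 0.05 and the log2 fold change was 1 or more in either direction. All fold changes below are on this scale, on which the change of a low gene is understated. All 4 genes passed the filter in both crosses. Over all 9 libraries of the G70 cross, 0 of the 4 genes were called in H against HP1, where 0.488% of all genes tested were called, and 0 of 4 against HP2, where 0.421% of genes were called. Against the mid-parent 0 of 4 were called, beside 0.482% of all genes. In none of the 4 genes did the 3 H libraries lie above all 6 parental libraries, as they did for 0.841% of all genes. None of the 4 had an unadjusted limma p of at most 0.05 in these 3 contrasts.

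The estimates for H against the mid-parent were small in the envelope genes and less certain in KEA3. The log2 fold change was 0.13 ± 0.19 (SE) for Nitab4.5_0001620g0100 and 0.08 ± 0.21 for Nitab4.5_0003111g0100, with 95% intervals from -0.30 to 0.55 and from -0.39 to 0.55. For Nitab4.5_0000001g0390 it was 0.26 ± 0.34, with an interval from -0.52 to 1.05, and for Nitab4.5_0001093g0060 it was 0.24 ± 0.38, with an interval from -0.62 to 1.09. A log2 fold change of 1 was thus within the 95% interval of both KEA3 genes and outside that of both KEA1/2 genes.

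The choice of libraries changed the values of KEA3 in H. In the 6 listed libraries, Nitab4.5_0001093g0060 was at 17.15 and 19.81 FPKM in H against 8.19 and 10.13 FPKM in HP1 and 10.65 and 7.84 FPKM in HP2. Both H libraries lay above all 4 parental libraries in all 4 KEA genes, as they did for 15.1% of all genes, and for a further 28% of genes both lay below. Relative to the mid-parent, the log2 fold change was 0.94 ± 0.19 (SE; limma adjusted p 0.0278) for Nitab4.5_0001093g0060 and 0.82 ± 0.22 (adjusted p 0.0568) for Nitab4.5_0000001g0390. Over all alternatives tried for the first of these values, the adjusted p ranged from 0.0278 to 1. At a log2 fold change of 1 this left 0 of 4 genes called, beside 8.54% of all genes tested. With a pseudocount of 0.1 the same libraries gave Nitab4.5_0001093g0060 a log2 fold change of 1.01 ± 0.21 (adjusted p 0.0298), and with median-of-ratios scaling 1.10 ± 0.21 (adjusted p 0.0311), so that 1 of 4 genes was called under each, beside 10.7% and 7.66% of all genes. Its call in these 6 libraries therefore depended on where the value fell around the fold threshold.

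Against single parents, the listed libraries gave Nitab4.5_0001093g0060 log2 fold changes of 0.94 ± 0.22 (adjusted p 0.0509) over HP1 and 0.94 ± 0.22 (adjusted p 0.0535) over HP2. Nitab4.5_0000001g0390 had 0.93 ± 0.26 (adjusted p 0.0725) and 0.70 ± 0.26 (adjusted p 0.144). None of the 4 genes was called in either contrast, beside 7.05% and 6.59% of all genes. The KEA1/2 genes stayed at 0.33 ± 0.17 (adjusted p 0.220) and 0.31 ± 0.18 (adjusted p 0.258) against the mid-parent. In the same fit the median of all genes was -0.14, and median-of-ratios scaling brought it to 0.00 and raised the 4 KEA values to between 0.47 and 1.10.

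In the K326 cross, L had higher estimates than its mid-parent in all 4 genes, and none passed the test. The log2 fold change was 0.87 ± 0.64 (SE; adjusted p 0.739) for Nitab4.5_0000001g0390 and 0.61 ± 0.38 (adjusted p 0.671) for Nitab4.5_0001093g0060. It was 0.32 ± 0.49 (adjusted p 0.869) for Nitab4.5_0001620g0100 and 0.44 ± 0.62 (adjusted p 0.859) for Nitab4.5_0003111g0100. The median over all genes was 0.13. The 3 L libraries lay above all 6 parental libraries in 0 of the 4 genes and in 4.6% of all genes. Called were 0 of 4 genes against LP1, LP2 and the mid-parent, beside 0.17%, 0.266% and 0.206% of all genes. Without LP2 replicate 2, the KEA1/2 estimates fell to -0.03 for both copies and the KEA3 estimates to 0.42 ± 0.40 and 0.35 ± 0.22, again with 0 of 4 called, beside 0.294% of all genes.

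**Figure D2:**
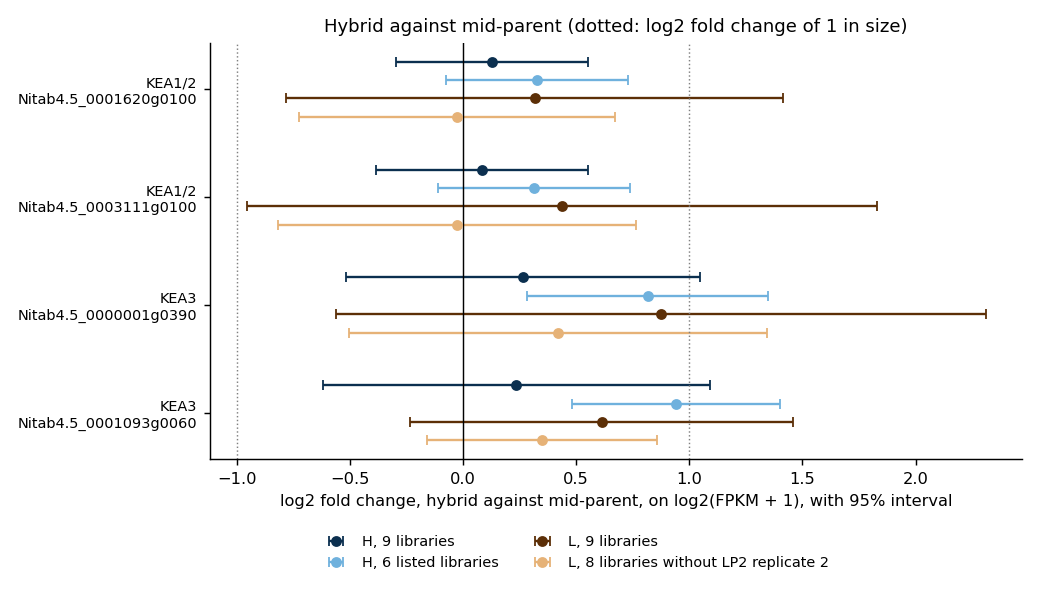
Log2 fold change of the hybrid against the mean of its parents on log2(FPKM + 1) (x axis) for the 4 genes (y axis), with 95% intervals from limma. Dark points use all 9 libraries of a cross, light points the 6 listed libraries of the G70 cross or the 8 libraries of the K326 cross without LP2 replicate 2, and dotted lines mark the fold threshold. The intervals of all 4 genes include 0 over 9 libraries, and those of both KEA3 genes lie above 0 in the 6 listed libraries.

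The parents were compared next. HP1 was lower than HP2 in all 4 estimates, with log2 fold changes of -0.31 ± 0.22 (SE) and -0.56 ± 0.24 for the KEA1/2 genes and of -0.56 ± 0.40 and -0.10 ± 0.43 for Nitab4.5_0000001g0390 and Nitab4.5_0001093g0060. When single libraries were left out, the value of Nitab4.5_0001093g0060 ranged from -0.37 to 0.23 and turned positive without HP1 replicate 2 or HP2 replicate 1, and that of Nitab4.5_0000001g0390 ranged from -0.90 to -0.23. The libraries did not overlap in 1 of the 4 genes, Nitab4.5_0003111g0100, which is so in the same direction for 5.51% of all genes, and its unadjusted limma p of 0.0454 became 1 after adjustment. Called were 0 of 4 genes, beside 0.462% of all genes, and again 0 of 4 in the listed libraries, beside 0.463%. LP1 and LP2 differed by log2 fold changes between 0.09 and 0.35 with standard errors between 0.44 and 0.74, with 0 of 4 called beside 0.2% of all genes. Without LP2 replicate 2 all 4 estimates changed sign, to -0.57 and -0.76 for the KEA1/2 genes and to -0.56 and -0.44 for Nitab4.5_0000001g0390 and Nitab4.5_0001093g0060, again with 0 of 4 called, beside 0.228% of all genes.

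Between the crosses, tested in 1 fit over 18 libraries, 0 of the 4 genes were called in any contrast. For GDH11 in HP2 against LP2, 0.00286% of all genes were called. The KEA estimates there lay between 0.41 and 0.98 with standard errors between 0.45 and 0.64, and without LP2 replicate 2 they lay between -0.21 and 0.07. For H against L the share of genes called was 0.157%, and the KEA estimates lay between -0.09 and 0.07. For HP1 against LP1 it was 0.541%, with KEA estimates between 0.05 and 0.22. The difference between the hybrid effects of H and L, with 0.083% of all genes called, was -0.61 ± 0.78 for Nitab4.5_0000001g0390, -0.38 ± 0.56 for Nitab4.5_0001093g0060, -0.19 ± 0.56 for Nitab4.5_0001620g0100 and -0.35 ± 0.70 for Nitab4.5_0003111g0100 (SE; adjusted p between 0.968 and 0.976). Over the 14 libraries without the 3 unlisted ones and LP2 replicate 2, the 4 differences became 0.40, 0.59, 0.35 and 0.34, with adjusted p between 0.410 and 0.747.

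The level of 1 KEA3 gene separated the libraries by their position on the first axis, whatever their group. With LP2 replicate 2 left out, the 7 libraries above 0 on the axis, drawn from HP1, HP2, H, LP2 and L, had between 13.87 and 19.81 FPKM of Nitab4.5_0001093g0060. The 10 libraries below 0, drawn from all 6 groups, had between 6.56 and 12.87 FPKM. The 2 sides did not overlap for this gene, as they did not, in the same direction, for 3.25% of all genes. For Nitab4.5_0000001g0390 the ranges were 3.72 to 10 and 1.19 to 6.21 FPKM, and HP1 replicate 1 and L replicate 2 were the libraries above 0 that fell within the lower range. The KEA1/2 genes overlapped broadly, at 14.28 to 31.23 against 9.44 to 21.72 FPKM for Nitab4.5_0001620g0100 and at 15.18 to 37.52 against 8.54 to 23.43 FPKM for Nitab4.5_0003111g0100. LP2 replicate 2 lay at the far end of the axis with the lowest value of all 18 libraries in each gene. LP1 replicate 2, which had the lowest position on the axis, had the second lowest. What sets a library's position on this axis was not tested.

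**Figure D3:**
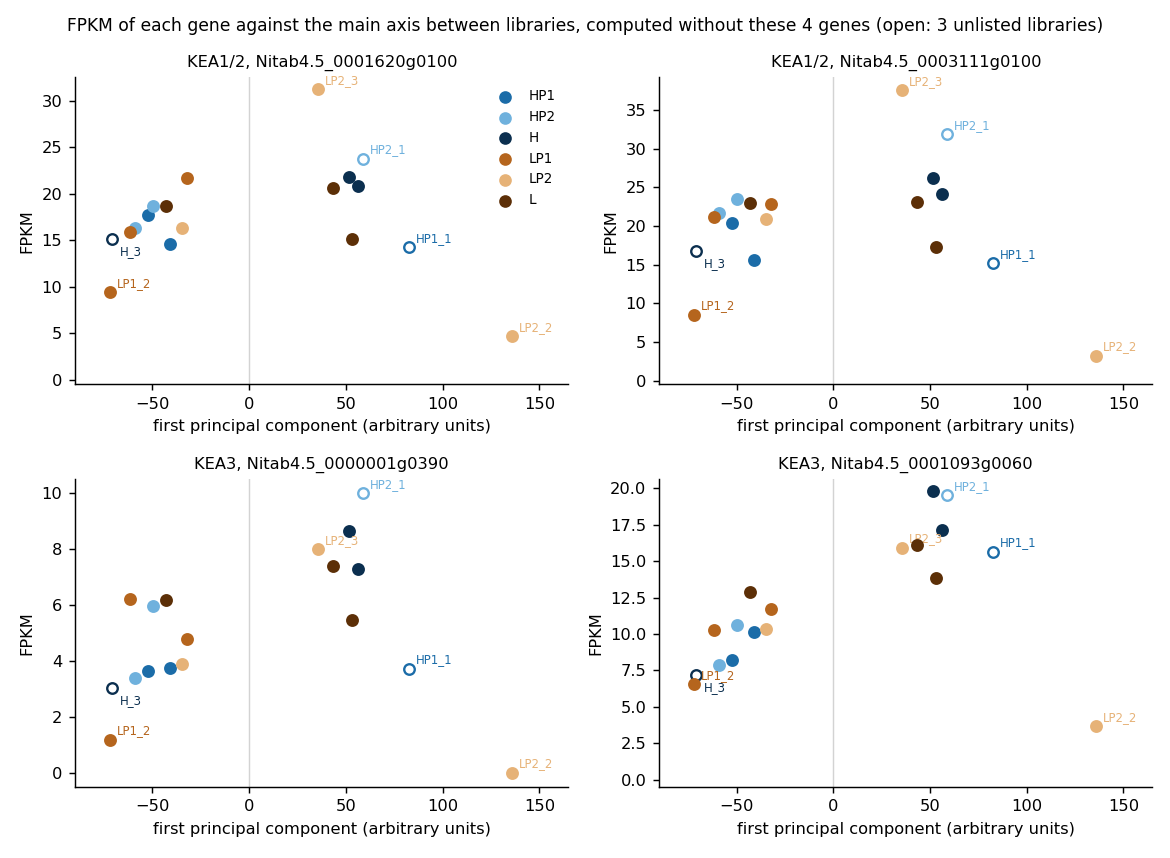
FPKM (y axis, linear) of each gene against the position of its library on the first principal component of all other genes (x axis, arbitrary units), coloured by group, with open points for the 3 unlisted libraries. Nitab4.5_0001093g0060 lies at 13.87 FPKM or more in the 7 libraries above 0 other than LP2 replicate 2 and at 12.87 FPKM or less in the 10 libraries below 0.

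The spread between libraries of a group was measured on the log2 scale. Over all 18 libraries the SD within groups was 0.60 for Nitab4.5_0001620g0100, 0.77 for Nitab4.5_0003111g0100, 0.86 for Nitab4.5_0000001g0390 and 0.60 for Nitab4.5_0001093g0060, against a median of 0.39 over all genes. In the G70 cross the KEA1/2 genes varied less than the median gene (0.24 and 0.28 against 0.34) and the KEA3 genes more (0.55 and 0.61). In the K326 cross all 4 varied more than the median of 0.40, with 0.81 and 1.05 for KEA1/2 and 1.09 and 0.60 for KEA3. Without LP2 replicate 2, the SD within groups over 17 libraries was 0.37 and 0.42 for KEA1/2 and 0.60 and 0.50 for KEA3, beside a median of 0.32.

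The copies of each pair were then set against each other, as a description. RSEM, named by the paper and by the submitters' notes, divides reads that map to several genes among them. With values made in this way, the balance of near-identical copies is less certain than their sum. Whether the 2 genes of a name, called copies here, are near-identical was not tested. The summed level of the KEA1/2 pair was 32.6 ± 4.77 FPKM in HP1, 45.3 ± 9.21 in HP2, 41.6 ± 8.57 in H, 33.2 ± 13.7 in LP1, 38.0 ± 30.4 in LP2 and 39.2 ± 6.04 in L (SD, n = 3 each). Nitab4.5_0001620g0100 made up between 46.7% and 48.5% of this sum in HP1, between 42.7% and 44.4% in HP2 and between 45.5% and 47.4% in H. In the K326 cross the share was between 44.9% and 47.2% in L, at 42.9%, 52.5% and 48.7% in LP1 and at 43.8%, 59.1% and 45.4% in LP2. The narrow range of GDH11 in HP2 thus did not hold in all of LP2. There replicate 1 lay within it, replicate 3 just above it, and replicate 2 far above it, at 4.66 and 3.22 FPKM of the copies. No test was made of these shares. It exceeded 50% in 2 libraries alone, LP1 replicate 2 and LP2 replicate 2, which were also the 2 libraries with the lowest sums at 17.98 and 7.88 FPKM.

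The KEA3 pair summed to between 3.67 FPKM in LP2 replicate 2 and 29.53 FPKM in HP2 replicate 1. The 3 H libraries were at 24.46, 28.48 and 10.23 FPKM, and the 3 L libraries were closer together at 19.07, 19.35 and 23.48 FPKM. Nitab4.5_0000001g0390 gave the smaller part in all 18 libraries, at most 37.7% of the sum. Its share was steady in H, at 29.9%, 30.4% and 29.6%, although the sum differed by more than 2-fold between these libraries. HP1 replicate 1 (19.2%) and LP1 replicate 2 (15.4%) had the lowest shares apart from LP2 replicate 2, where this copy was listed at 0.

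**Figure D4:**
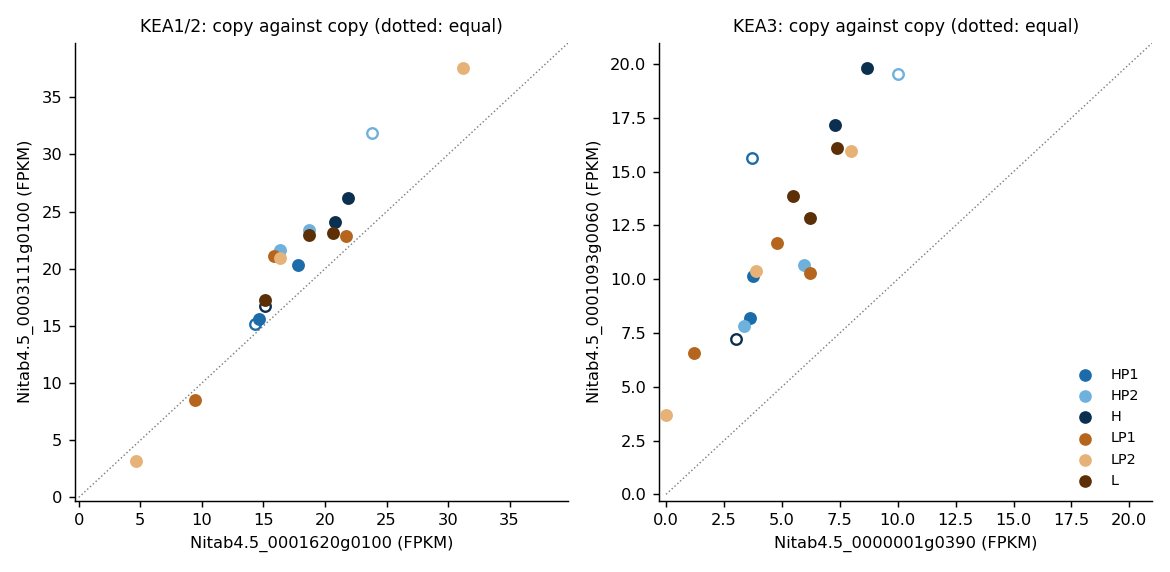
FPKM of 1 copy (x axis) against the other (y axis) of the KEA1/2 pair (left) and the KEA3 pair (right) in 18 libraries, coloured by group, with open points for the 3 unlisted libraries and a dotted line where both copies are equal. The KEA1/2 copies lie close to 1 line above equality except in LP1 replicate 2 and LP2 replicate 2, and Nitab4.5_0001093g0060 exceeds its partner in all 18 libraries.

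Across the 18 libraries the 4 genes rose and fell together on the log2(FPKM + 1) scale, most closely the KEA1/2 copies. Their Pearson r was 0.984 (Spearman rho 0.963), and each was the gene most like the other among the 34959 other genes tested. The KEA3 copies had an r of 0.906 (rho 0.891). Between KEA1/2 and KEA3, r was 0.931 and 0.944 for Nitab4.5_0000001g0390 (rho 0.822 and 0.878) and 0.811 and 0.789 for Nitab4.5_0001093g0060 (rho 0.736 and 0.752). For Nitab4.5_0000001g0390, 0.0343% and 0.0629% of all genes tested had an r at least as high with the KEA1/2 genes. For Nitab4.5_0001093g0060 these shares were 2.10% and 4.12%. With Nitab4.5_0001093g0060 itself, 1.78% and 2.31% of genes had an r at least as high as the KEA1/2 genes. Two-sided permutation p over the 6 relations, adjusted by Benjamini-Hochberg, lay between 1.5e-05 and 0.00012 for r and between 3e-05 and 0.0007 for rho. Libraries share genotypes and the axis above, which these p do not account for.

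All 6 relations were weaker without the most extreme libraries, and those of KEA1/2 with Nitab4.5_0001093g0060 were then the weakest. LP2 replicate 2 was 1 of the 2 libraries farthest from the median of the first gene in all 6 relations. The second was LP2 replicate 3 in the relations of Nitab4.5_0001620g0100 and LP1 replicate 2 in the others. The values that follow therefore do not all rest on the same libraries. Without these 2, r was 0.955 between the KEA1/2 copies and 0.829 between the KEA3 copies, 0.874 and 0.772 between KEA1/2 and Nitab4.5_0000001g0390, and 0.679 and 0.501 between KEA1/2 and Nitab4.5_0001093g0060. Of deviations from the group means, pooled over all groups, r lay between 0.788 and 0.986. Without LP2 replicate 2 it lay between 0.640 and 0.962. The relations were thus present within groups when these were pooled, but not in each group. In HP1, replicate 2 had the highest Nitab4.5_0001620g0100 (17.77 FPKM) and the lowest Nitab4.5_0001093g0060 (8.19 FPKM). In the 9 libraries of the K326 cross all 6 values of r lay between 0.940 and 0.986. These include LP2 replicate 2 and LP1 replicate 2, the lowest and second lowest libraries of all 4 genes. No r of this cross was taken without them, so its values cannot be set against those of the G70 cross. In the 9 libraries of the G70 cross they ranged from 0.966 for the KEA1/2 copies and 0.847 for the KEA3 copies down to 0.535 for Nitab4.5_0003111g0100 with Nitab4.5_0001093g0060.

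Because the libraries form separate clusters on the first axis, r was also taken within its 2 sides. The KEA1/2 copies kept an r of 0.941 in the 10 libraries below 0 and of 0.984 in the 7 libraries above 0 without LP2 replicate 2 (adjusted permutation p over 12 relations 0.00119 for both, exact in the 7 libraries). The KEA3 copies had 0.848 (adjusted permutation p 0.0036) and 0.697 (adjusted exact p 0.0962). Nitab4.5_0001093g0060 was related to KEA1/2 below 0, at 0.716 and 0.683 (adjusted permutation p 0.0193 and 0.0205). Above 0 the values were 0.463 and 0.539 (adjusted exact p 0.291 and 0.235), which did not pass the test in 7 libraries. Nitab4.5_0000001g0390 had an r with KEA1/2 of 0.828 and 0.886 below 0 (adjusted permutation p 0.0193 and 0.00741). Above 0 it was 0.805 and 0.868 (adjusted exact p 0.0389 and 0.0193). By rank, its rho with Nitab4.5_0001620g0100 below 0 was 0.539 (adjusted permutation p 0.135). LP1 replicate 2 was the lowest of the 10 libraries in all 4 genes, and no r below 0 was taken without it.

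Other genes were as closely related to single members. For Nitab4.5_0001620g0100 the next genes after its copy were Nitab4.5_0003772g0020 (r = 0.959) and Nitab4.5_0005903g0010 (r = 0.945), and for Nitab4.5_0003111g0100 they were Nitab4.5_0000486g0130 (r = 0.971) and Nitab4.5_0003629g0030 (r = 0.960). The genes most like Nitab4.5_0000001g0390 were Nitab4.5_0003307g0080 (r = 0.973), Nitab4.5_0004637g0060 (r = 0.972) and Nitab4.5_0004032g0020 (r = 0.968). Those most like Nitab4.5_0001093g0060 were Nitab4.5_0002431g0020 (r = 0.975), Nitab4.5_0001336g0040 (r = 0.968) and Nitab4.5_0004814g0010 (r = 0.967). These are the highest of the values over 34959 genes and 18 libraries and are given without a test. The KEA3 copies were not each other's closest genes, since 142 other genes were at least as close to Nitab4.5_0000001g0390 as its copy was, and 75 to Nitab4.5_0001093g0060.

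KEA5, the other K+ efflux antiporter of the list, belongs to the endomembranes in Arabidopsis and also has 2 genes. Nitab4.5_0003984g0010 was between 2.94 and 5.17 FPKM in the parents of the G70 cross and between 3.12 and 4.71 FPKM in H. Nitab4.5_0000072g0230 was between 3.08 and 5.53 FPKM in these parents and between 3.38 and 4.48 FPKM in H. Against the mid-parent of H their log2 fold changes were -0.08 ± 0.18 and -0.21 ± 0.19 (SE; adjusted p 1.00 for both) over 9 libraries. In the 6 listed libraries they were -0.23 ± 0.17 (adjusted p 0.369) and -0.38 ± 0.16 (adjusted p 0.148), while the KEA3 estimates were 0.82 and 0.94, and this difference between genes was not tested. Across the 18 libraries, Nitab4.5_0003984g0010 had an r of 0.565 and 0.643 with the KEA1/2 genes, of 0.589 with Nitab4.5_0000001g0390 and of 0.383 with Nitab4.5_0001093g0060. For Nitab4.5_0000072g0230 the 4 values lay between -0.148 and 0.071.

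Of the other 22 K+ transport genes of the study's list, KEA5 included, 21 were tested. These comprise vacuolar antiporters (NHX1), channels of the plasma membrane and the vacuole, and the kinases CIPK5 and CIPK6. In H against the mid-parent over 9 libraries, 0 were called higher and 0 lower, beside 0.482% of all genes in either direction, with a median log2 fold change of -0.12 against -0.04 over all genes. In L they were 0 and 0, beside 0.206% of all genes, with a median of 0.17 against 0.13. In the 6 listed libraries, 0 were called higher and 5 lower in H, where 3.77% of all genes were called higher and 4.76% lower, with a median of -0.66 against -0.14 over all genes. The 5 were Nitab4.5_0005906g0010 of the tandem-pore channels TPKs (-1.54), Nitab4.5_0006940g0020 of the outward channel GORK (-1.14), the CIPK6 genes Nitab4.5_0006408g0010 (-1.53) and Nitab4.5_0004815g0040 (-1.35) and the CIPK5 gene Nitab4.5_0000462g0210 (-1.19). The list is that of the study and was taken with earlier results of these samples known, so the counts are not independent evidence of a direction.

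Across the 18 libraries, the 21 genes had a median r of 0.33 and 0.41 with the KEA1/2 genes and of 0.28 with Nitab4.5_0000001g0390, where the median over all genes was 0.20, 0.22 and 0.19. With Nitab4.5_0001093g0060 the median was -0.01 against 0.12 over all genes, and the values ran from -0.58 for the TPKs gene Nitab4.5_0005906g0010 to 0.81 for Nitab4.5_0002455g0040, a gene of the vacuolar antiporter NHX1.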

How the data were processed

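The authors mapped trimmed reads to the genome of cultivar K326 with TopHat2 and estimated abundance with RSEM; the submitters' processing notes name HISAT2, StringTie and RSEM, and no versions are given in the sources used here. The deposited table holds FPKM for 69500 genes with 2 decimals in 18 libraries, although it is described as raw counts. Its values sum to between 756862 and 818037 per library. The deposited group means were not used.

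Values were put on log2(FPKM + 1) and fitted with limma 3.58.1 in R 4.3.3 (intensity trend, Benjamini-Hochberg over all genes tested), with the 9 libraries of a cross in 1 fit for contrasts within it and all 18 libraries for those between crosses. A gene needed 1 FPKM in at least 3 libraries, or in at least 2 where the 6 listed libraries of the G70 cross were fitted. The scripts were tested on simulated data in which 200 genes were changed in the hybrid and compared with the mid-parent. A log2 fold change of 1 was called in 18 of these 200 genes in the G70 cross and in 0 in K326. At a log2 fold change of 2, 155 and 146 of the 200 were called. A gene that was not called was therefore not shown to be unchanged, least of all near the fold threshold. Alternatives were a pseudocount of 0.1, other filters and scalings, unadjusted p, a log2 fold change of 2, a replicate block, and leaving out each library. Those combining the listed libraries with a pseudocount of 0.1 or a scaling, those over 14 libraries, and the correlations by side of the axis were added after the values were seen. Correlations were tested with 100000 permutations, or exactly in 7 libraries.

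The labels number the replicates, but do not say that a number marks a block, nor that libraries are separate plants beyond the mixing of each plot, so p-values measure the spread between these libraries. The departures of libraries with the same number from the mean of their group correlated above 0.1 in all 3 pairs of HP1 with HP2 (0.58, 0.27 and 0.48), L with LP2 (0.54, 0.25 and 0.23) and LP1 with LP2 (0.25, 0.21 and 0.29). In the other groups compared, not all 3 pairs did so. H with HP1 had 0.51, -0.44 and 0.60, and H with HP2 had 0.60, -0.22 and 0.70. HP2 with LP2 was negative throughout (-0.54, -0.31 and -0.26).

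Named were the 4 KEA genes, the 3 genes with the highest r with each, both KEA5 genes, and those of the other 22 K+ genes called in a hybrid against its mid-parent, besides the K+ genes with the extreme r with Nitab4.5_0001093g0060, which were chosen after their values were seen. The genes and lists were chosen with earlier results of these data known. Gene names come from the study, since 0 of the 4 identifiers matched the RefSeq table given. Sequences and positions were not analysed here, and leaf markers could not be checked for want of gene names in the table.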

Additional observations from a re-analysis of the deposited data

How the results depend on the processing

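Counts of KEA genes called were recomputed under 144 omissions of a single library and 142 other alternatives. The count stayed at 0 in all of these except for H against the mid-parent over the 6 listed libraries with a pseudocount of 0.1 or with median-of-ratios scaling, where it was 1 (Nitab4.5_0001093g0060) in each. Where 1 FPKM was needed in every library, Nitab4.5_0000001g0390 was not tested in the K326 cross or between the crosses. A log2 fold change of 2 is a stricter rule than the main one, so it could not raise a count of 0. With the replicate block the count was 0 in all contrasts, so pairing the libraries by number changed no call. None of the 48 log2 fold changes was called in 576 omissions of 1 library, with another sign in 45. In 560 other alternatives, 2 became called and 37 had another sign without a call. For H against HP2, the listed libraries gave 0.70, 0.27 and 0.15 for Nitab4.5_0000001g0390, Nitab4.5_0001620g0100 and Nitab4.5_0003111g0100, against -0.02, -0.03 and -0.19 over 9 libraries; the cause was not tested. The 6 correlations across libraries kept their sign and an unadjusted p of at most 0.05 in 108 omissions of 1 library and in 42 other alternatives, with r between 0.628 and 0.988 in the former and between 0.640 and 0.986 in the latter. These do not include the values by side of the axis. Above 0, the unadjusted exact p was 0.291 and 0.215 for KEA1/2 with Nitab4.5_0001093g0060 and 0.0802 for the KEA3 copies. Nor do they include those without the 2 farthest libraries, where r was as low as 0.501. With 3 libraries per group and no read counts, the spread between libraries limits what could be seen.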
